A study of Rattus norvegicus with 4 samples.

Results

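The loci described here carry the names of genes of the mitochondrial respiratory chain, of the machinery that imports proteins into mitochondria, and of the Slc25 carriers. They were chosen by a rule on names, which also names Cox7a2l and was set with earlier results of these data known. A listed transcript was taken when its gene name began with Nduf, Sdh, Uqc, Cox and a digit, Atp5, Timm, Tomm, Cyc or Slc25, and transcripts with the same name on the same chromosome were summed. This gave 61 loci, built from 73 transcripts, of 17290 loci in all. The transcripts come from tables of long noncoding RNA (lncRNA), so members are listed noncoding transcripts, and 60 of the 61 loci carry the name of a protein-coding gene in RefSeq. Their reads could include reads of the messenger RNA, since the sources used here do not say whether strand was used in counting.

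RNA was sequenced from primary cortical astrocytes of newborn Wistar rats, cultured on coverslips above neurons and held apart from them by paraffin dots. There were 2 libraries per group. In the OGD group the co-cultures spent 45 min in glucose-free medium at low oxygen (oxygen-glucose deprivation) and then 24 h in normal medium and air, which is a form of ischemic preconditioning. Control cells were untreated. Both groups came from the same kind of co-culture, and nothing in the labels tells whether the 2 libraries of a group are separate cultures. The p-values therefore rest on a spread between libraries that could be technical.

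The respiratory chain passes electrons from NADH through complex I, or from succinate through complex II, to ubiquinone. Complex III hands them on to cytochrome c, and complex IV gives them to oxygen. The protons pumped along the way drive ATP synthase, often called complex V. In cortex, astrocytes are known for a strong glycolytic metabolism, yet they hold a working respiratory chain, and oxygen deprivation stops electron flow at complex IV. Most subunits are encoded in the nucleus, made in the cytosol and brought in by the TOM and TIM translocases, while Slc25 proteins carry phosphate, nucleotides and other metabolites across the inner membrane.

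The listed counts per library were 2646300 and 2513804 in the OGD libraries and 2607020 and 2631684 in the control libraries. Member loci held 0.151% and 0.173% of these counts in the OGD libraries, against 0.122% and 0.0995% in the control libraries. Without the locus Cox7a2l, members had 2441 and 2564 counts in the OGD libraries and 2760 and 2259 in the control libraries, and these ranges overlap. Of the astrocyte marker names, 5 of 10 had a locus, and they summed to 33.8 to 64.4 CPM (counts scaled to a common library size by the TMM method) in OGD libraries and 34.3 to 51.0 CPM in control libraries. Gfap was highest among them, Glul had 0 counts in both control libraries and in OGD replicate 1, and the names Aqp4, Aldh1l1, S100b, Gja1 and Sox9 had no locus in the tables used here. Neuron marker names summed to 108 to 112 CPM in OGD libraries and 82.3 to 110 CPM in control libraries, through 3 of 10 names. Microglia names summed to 10.9 to 35.9 CPM in OGD libraries and 28.4 to 43.4 CPM in control libraries (3 of 8 names), and oligodendrocyte names to 7.91 to 10.0 CPM in OGD libraries and 8.01 to 17.1 CPM in control libraries (3 of 8 names). Fibroblast and meningeal names, through Col1a1 and Col3a1 of 6, summed to 184 to 325 CPM in OGD libraries and 160 to 344 CPM in control libraries. In bulk RNA, fewer cells of a type and less RNA per cell cannot be told apart.

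Of the 61 member loci, 49 had enough counts to be tested. By edgeR's quasi-likelihood test with Benjamini-Hochberg adjustment over 9581 loci, 0 members passed an adjusted p of 0.05, as against 8 of all tested loci (0.0835%, with 0.0417% higher and 0.0417% lower after OGD). On simulated counts this test called 12% of 2-fold and 42% of 4-fold changes, so a locus that is not called could still differ. At an unadjusted p under 0.05 there were 2 members, Cox7a2l and Ndufb8, both higher after OGD, and 223 of all tested loci (2.33%, with 1.23% higher and 1.1% lower after OGD). DESeq2 called 1 member, Cox7a2l, and 38 of all tested loci (0.397%). Both OGD libraries lay above both controls at 13 tested members and below both at 6, beside 14.0% of all tested loci in each direction, so the groups did not overlap at 38.8% of tested members, beside 28.0% of all tested loci. The median log2 fold change of the tested members, OGD over control, was 0.02, beside -0.0018 over all tested loci. A log2 fold change above 0 was found at 27 of the 49 (55.1%), beside 49.7% of all tested loci, and one of at least 1 in either direction at 3, beside 4.43% of all tested loci. Of the 49, 34 had a log2 fold change between -0.5 and 0.5.

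**Figure D1:**
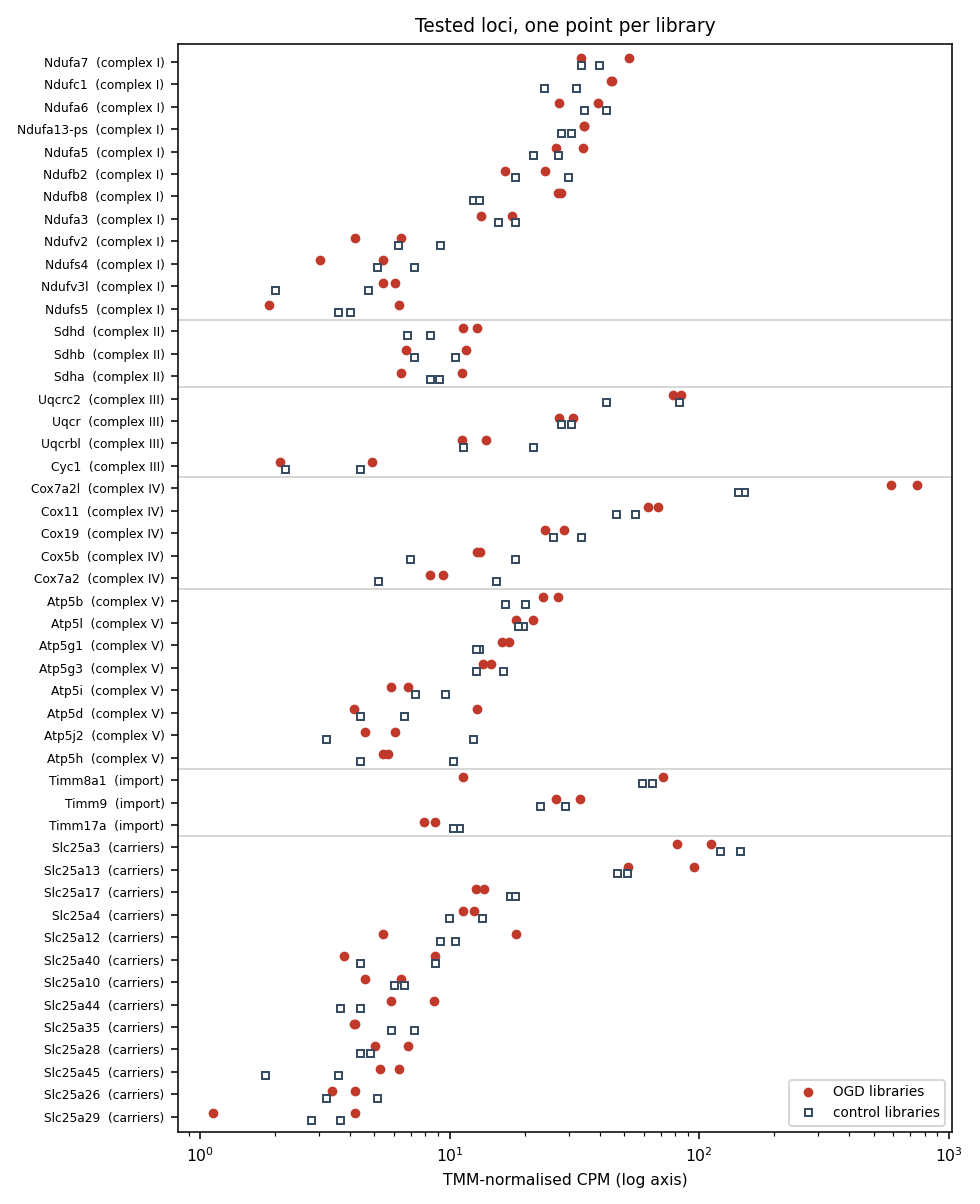
TMM-normalised CPM (log axis) of 48 of the 49 tested loci, ordered by role, with filled circles for the 2 OGD libraries and open squares for the 2 control libraries. Cox7a2l stands apart from the other loci, with 584 and 745 CPM in the OGD libraries and 152 and 143 CPM in the control libraries.

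Promoter sequences of the genes at Cox7a2l and Ndufb8 are shown because these loci had the smallest p-values among the members. They come from RefSeq for the rat build GRCr8, run from 250 bases before to 50 bases after the start of the gene, and are printed 5′ to 3′ on the gene's strand. Capitals mark the motif matches described at the end of the results.
Cox7a2l, chr6:16936324-16936623, plus strand: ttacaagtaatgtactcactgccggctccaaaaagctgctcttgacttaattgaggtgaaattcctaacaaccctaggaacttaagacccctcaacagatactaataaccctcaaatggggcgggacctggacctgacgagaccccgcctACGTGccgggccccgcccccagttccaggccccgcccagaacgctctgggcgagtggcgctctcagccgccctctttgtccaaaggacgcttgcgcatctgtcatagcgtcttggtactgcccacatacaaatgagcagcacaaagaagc
Ndufb8, chr1:253362887-253363186, minus strand: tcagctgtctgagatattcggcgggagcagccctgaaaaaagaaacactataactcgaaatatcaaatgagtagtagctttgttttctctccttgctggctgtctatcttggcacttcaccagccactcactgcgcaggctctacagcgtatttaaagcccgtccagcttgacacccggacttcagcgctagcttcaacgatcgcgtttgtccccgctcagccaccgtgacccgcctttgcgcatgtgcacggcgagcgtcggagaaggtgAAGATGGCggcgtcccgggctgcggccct

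Cox7a2l encodes a protein related to subunit 7a of complex IV that is known from mouse and human cells to join complex III and complex IV into supercomplexes. Its listed transcript, Cox7a2l.c, is spliced, 821 bases long, and lies on chromosome 6 from 6696170 to 6709782 in the tables' coordinates, for which no build of the rat is named. It had 1551 and 1786 counts in the OGD libraries, against 417 and 360 in the control libraries. Both OGD libraries lay well above both controls. The locus averaged 664 ± 113 CPM after OGD and 148 ± 5.88 CPM in control (SD, n = 2 each). The log2 fold change was 2.17 (SE 0.21), with an adjusted p of 0.0993 in edgeR and 2.6e-10 in DESeq2. The ratio of summed counts, scaled by library size, was 4.47, with an exact 95% counting interval of 4.13 to 4.84 that covers counting error only.

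Per transcript length, Cox7a2l.c was the highest member in every library. In FPKM, the deposited unit that divides reads by the length of the transcript and the size of the library, it stood at 75.8 and 87.0 in the OGD libraries and 20.4 and 16.6 in the control libraries. The next member transcript reached 8.90 and 12.6 FPKM in the OGD libraries and 20.2 and 11.2 FPKM in the control libraries, so in control replicate 1 it came close to Cox7a2l.c. It was the unspliced transcript at Slc25a3 except in OGD replicate 1, where it was Uqcrc2.d. The median over the 73 transcripts was 1.14 and 0.929 FPKM in the OGD libraries and 1.15 and 0.922 FPKM in the control libraries. Cox7a2l alone made up 38.9% and 41.1% of all member counts in the OGD libraries, against 13.1% and 13.7% in the control libraries.

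A second listed transcript, NONRATT024782.2 (766 bases, chromosome 6, 6696340 to 6709774), overlaps Cox7a2l.c over 13435 bases. The tables give no strand for either. It had 3 and 6 counts in the OGD libraries, against 282 and 101 in the control libraries. Its share of the counts of both transcripts was 0.193% and 0.335% in the OGD libraries, against 40.3% and 21.9% in the control libraries. With transcripts tested as deposited, its log2 fold change was -5.28 (SE 0.73, edgeR adjusted p = 0.336). Reads that fit both transcripts could have been divided between them in counting. Merged into 1 locus, they had 1554 and 1792 counts in the OGD libraries and 699 and 461 in the control libraries, a log2 fold change of 1.60 (SE 0.25, edgeR adjusted p = 0.446). The difference at the merged locus was thus smaller than at Cox7a2l.c, with both OGD libraries still above both controls.

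Complex I is the largest group, with 18 loci, of which 13 were tested. The median log2 fold change was 0.08, beside -0.0018 over all tested loci. Summed over the 18 loci, the level was 280 and 284 CPM in the OGD libraries, against 261 and 235 CPM in the control libraries.

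Ndufb8, an accessory subunit in the membrane arm of complex I, had 72 and 67 counts in the OGD libraries and 34 and 33 in the control libraries. The libraries of each group were close to each other and the groups were apart. The locus averaged 27.5 ± 0.574 CPM after OGD and 12.8 ± 0.548 CPM in control (SD, n = 2 each), a log2 fold change of 1.11 (SE 0.26, edgeR unadjusted p = 0.00876, adjusted p = 1.00). It sums 2 spliced transcripts on chromosome 1, for which no strand is given. Ndufb8.c spans 264298658 to 264303041 and Ndufb8.d spans 264298669 to 264302398. Ndufb8.d, the shorter at 840 bases, had 43 and 50 counts in the OGD libraries, against 5 and 3 in the control libraries. Ndufb8.c, 1069 bases long, had 29 and 17 counts in the OGD libraries, against 29 and 30 in the control libraries.

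In the counts as deposited, the difference at Ndufb8 thus lay in the shorter transcript. Ndufb8.d lies within the span of Ndufb8.c, so reads that fit both could have been divided between them in counting. Ndufb8.d made up 59.7% (exact 95% binomial interval 47.5 to 71.1%) and 74.6% (62.5 to 84.5%) of the locus counts in the OGD libraries. In the control libraries it made up 14.7% (4.95 to 31.1%) and 9.09% (1.92 to 24.3%). These intervals cover counting error only, and those of the OGD libraries lie above those of the control libraries. Tested as its own transcript, Ndufb8.d had a log2 fold change of 3.56 (SE 0.42, edgeR unadjusted p = 7.8e-04, adjusted p = 0.249), and Ndufb8.c had -0.32 (SE 0.37, adjusted p = 1.00). At the level of transcripts, 292 of 10892 tested (2.68%, and 1.44% higher after OGD) had an unadjusted p under 0.05 in edgeR, and the members among them were Ndufb8.d, Cox7a2l.c and Ndufc1.a. After adjustment 0 member transcripts passed, beside 0.00918% of all. Per length, Ndufb8.d stood at 2.05 and 2.38 FPKM in the OGD libraries and 0.239 and 0.135 FPKM in the control libraries.

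**Figure D2:**
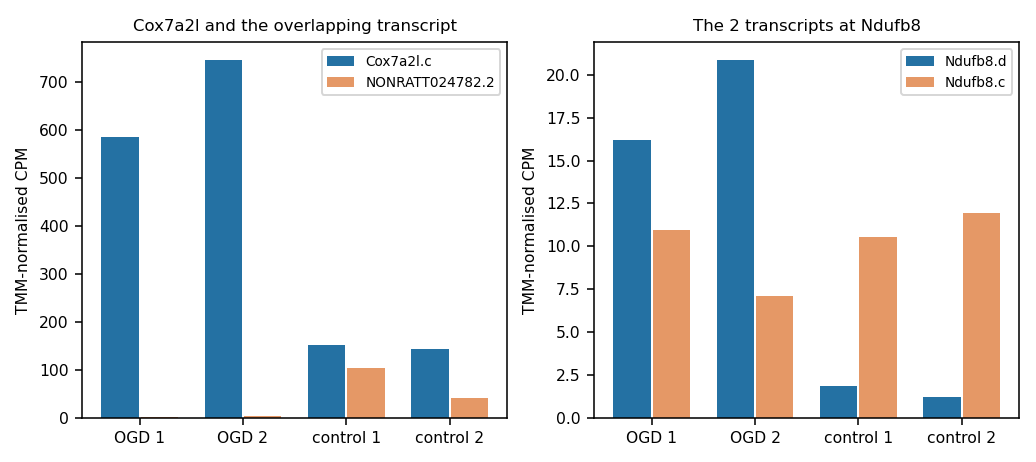
TMM-normalised CPM in each of the 4 libraries for Cox7a2l.c and the transcript that overlaps it (left) and for the 2 transcripts at Ndufb8 (right). NONRATT024782.2 has 3 and 6 counts in the OGD libraries, and Ndufb8.d has 5 and 3 counts in the control libraries.

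In all, 12 member loci sum 2 transcripts. The share of the locus held by each transcript did not overlap between groups at 2 of them, Ndufb8 and Slc25a12, beside 31.4% of the 1215 tested loci with 2 transcripts in all. The counting intervals were also apart at Ndufb8 only, beside 1.65% of the 1215. Such intervals can also be apart within a group. At Slc25a3 the unspliced transcript held 95.5% (93.0 to 97.3%) and 73.4% (68.0 to 78.2%) of the locus in the control libraries. Slc25a12 encodes the aspartate-glutamate carrier of brain known as aralar. Its longer-spanning transcript Slc25a12.d held 81.6% and 76.9% of the locus in the OGD libraries, against 65.5% and 69.6% in the control libraries.

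Other complex I loci differed less. Ndufc1, an accessory subunit, had 118 and 107 counts in the OGD libraries and 88 and 60 in the control libraries. Its log2 fold change was 0.67 (SE 0.26, edgeR adjusted p = 1.00), and Ndufc1.a was the transcript with the larger difference, at 93 and 59 counts in the OGD libraries and 49 and 40 in the control libraries. Ndufa13-ps, which the RefSeq table gives as another name of Ndufa13, had 92 and 83 counts in the OGD libraries and 84 and 70 in the control libraries. The accessory subunit loci Ndufa5, Ndufa6, Ndufa7 and Ndufb2 had log2 fold changes of 0.32 (SE 0.28), -0.20 (SE 0.29), 0.23 (SE 0.31) and -0.24 (SE 0.38), and their groups overlapped. The loci Ndufa3, Ndufs4, Ndufs5, Ndufv2 and Ndufv3l had log2 fold changes between -0.54 and 0.75.

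Complex II, the succinate dehydrogenase, was listed through Sdha, Sdhb and Sdhd. Sdhd, a membrane anchor, had 30 and 31 counts in the OGD libraries and 23 and 17 in the control libraries, a log2 fold change of 0.67 (SE 0.34). Sdha, which carries the flavin, and Sdhb, which carries the iron-sulfur clusters, stood at 0.01 (SE 0.42) and 0.05 (SE 0.45), with groups that overlapped. The difference at Sdhd did not pass the test (edgeR unadjusted p = 0.107, adjusted p = 1.00).

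Complex III was listed through 4 loci, all with overlapping groups. Uqcrc2, a core protein of the complex, had 208 and 203 counts in the OGD libraries and 228 and 106 in the control libraries, so the control libraries differed from each other more than the groups did. Uqcr, now Uqcr11, had 73 and 75 counts in the OGD libraries and 84 and 70 in the control libraries. Cyc1, the cytochrome c1 subunit, and Uqcrbl had log2 fold changes of 0.11 (SE 0.67) and -0.37 (SE 0.42). Cyc1 was the only name that began with Cyc, so cytochrome c itself was not among the loci.

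At complex IV the loci other than Cox7a2l gave small differences. Cox11, which helps to place copper in the catalytic subunit, had 181 and 150 counts in the OGD libraries and 127 and 139 in the control libraries, a log2 fold change of 0.36 (SE 0.22). Its transcript also overlaps listed transcripts of 4 other loci, with at most 79 counts each in any library. Cox19, another factor of copper handling, had 64 and 69 counts in the OGD libraries and 92 and 65 in the control libraries. Cox7a2, the subunit that Cox7a2l resembles, had 25 and 20 counts in the OGD libraries and 42 and 13 in the control libraries, and Cox5b had 35 and 31 counts in the OGD libraries and 19 and 46 in the control libraries. The groups overlapped at Cox19, Cox7a2 and Cox5b. Without Cox7a2l, complex IV summed to 116 and 116 CPM in the OGD libraries and 106 and 106 CPM in the control libraries.

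ATP synthase had 9 loci, of which 8 were tested, with a median log2 fold change of 0.0091. Atp5b, the catalytic beta subunit, had 72 and 57 counts in the OGD libraries and 55 and 42 in the control libraries. Atp5g1, a gene of the membrane-embedded c subunit, had 46 and 39 counts in the OGD libraries and 36 and 32 in the control libraries. Both were higher in each OGD library than in each control, with log2 fold changes of 0.47 (SE 0.27) and 0.38 (SE 0.28). Atp5i had 18 and 14 counts in the OGD libraries and 20 and 24 in the control libraries, a log2 fold change of -0.41 (SE 0.37). Its transcript overlaps NONRATT009173.2 over 1118 bases. That transcript had 21 and 9 counts in the OGD libraries and 12 and 35 in the control libraries, so its groups overlapped. Both OGD libraries lay above both controls at 2 of the 8 and below both at 1, Atp5i. Over all tested loci the share was 14.0% in each direction. Atp5j2, the f subunit, had 16 and 11 counts in the OGD libraries and 34 and 8 in the control libraries, and its log2 fold change of -0.55 (SE 0.71) rests on control replicate 1. The group summed to 99.8 and 107 CPM in the OGD libraries and 99.4 and 93.6 CPM in the control libraries.

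**Figure D3:**
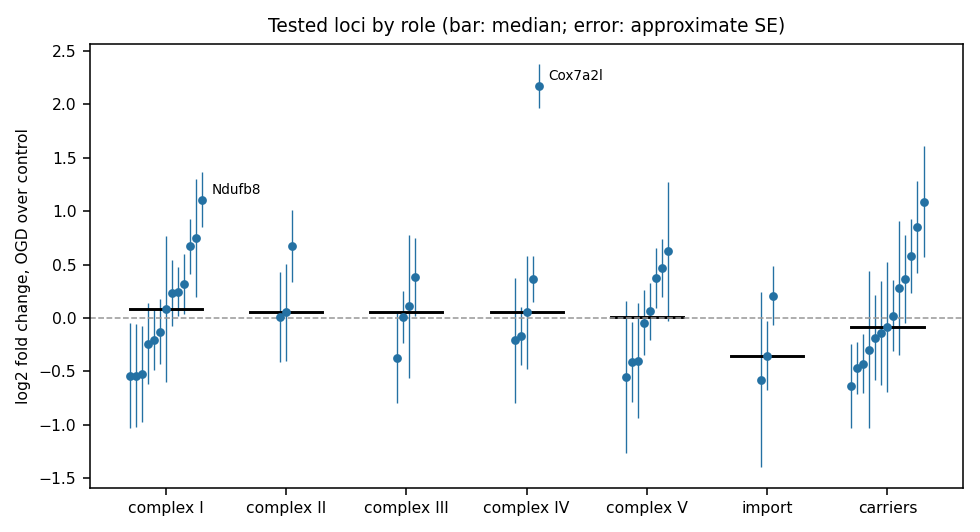
Log2 fold change, OGD over control, of each tested locus by role, with approximate standard errors and a horizontal bar at each group's median. Group medians lie between -0.35 (import) and 0.08 (complex I), and Cox7a2l, at 2.17, and Ndufb8, at 1.11, are labelled.

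The import machinery had 5 loci, and 3 were tested. Timm8a1, a chaperone of the intermembrane space, had 30 and 172 counts in the OGD libraries and 178 and 148 in the control libraries. OGD replicate 1 stood far below the other 3 libraries, and the log2 fold change was -0.58 (SE 0.82) with both OGD libraries and 0.23 without OGD replicate 1. Timm9, of the same family of small chaperones, had 71 and 80 counts in the OGD libraries and 63 and 73 in the control libraries. Timm17a, part of the inner membrane translocase, had 21 and 21 counts in the OGD libraries and 30 and 26 in the control libraries, a log2 fold change of -0.35 (SE 0.33). The remaining import loci, Timm8a2 and Tomm22, had at most 9 counts in any library.

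Slc25 carriers had 16 loci, with 13 tested and a median log2 fold change of -0.08. Slc25a3, the phosphate carrier that supplies ATP synthase, had 217 and 267 counts in the OGD libraries and 400 and 304 in the control libraries. Both OGD libraries were below both controls, with a log2 fold change of -0.47 (SE 0.25, edgeR adjusted p = 1.00). This held for the sum of its 2 transcripts, and at each alone the groups overlapped. The unspliced transcript had 161 and 239 counts in the OGD libraries and 382 and 223 in the control libraries. Slc25a3.i had 56 and 28 counts in the OGD libraries and 18 and 81 in the control libraries. Slc25a3 overlaps NONRATT026666.2, which had 23 and 34 counts in the OGD libraries and 91 and 25 in the control libraries. Slc25a13, the aspartate-glutamate carrier known as citrin, had 138 and 228 counts in the OGD libraries and 141 and 118 in the control libraries. In CPM, OGD replicate 1 was at 52.0 against 51.3 in the higher control, so its log2 fold change of 0.58 (SE 0.34) came from OGD replicate 2. Slc25a4, the ADP/ATP carrier of heart, muscle and brain, had 30 and 30 counts in the OGD libraries and 37 and 25 in the control libraries.

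The tested carriers with the lowest and highest fold change had few reads. Slc25a45 had 14 and 15 counts in the OGD libraries and 5 and 9 in the control libraries, a log2 fold change of 1.09 (SE 0.52). Slc25a35 had 11 and 10 counts in the OGD libraries and 16 and 18 in the control libraries, the lowest log2 fold change of any tested member at -0.64 (SE 0.40). Slc25a17, a carrier of peroxisomes and not of mitochondria, had 34 and 33 counts in the OGD libraries and 48 and 46 in the control libraries, a log2 fold change of -0.43 (SE 0.28). Slc25a44 went the other way, with 23 and 14 counts in the OGD libraries and 10 and 11 in the control libraries (log2 fold change 0.85, SE 0.43). Both OGD libraries lay above both controls at 4 of the 13 tested carriers and below both at 3. Over all tested loci the share was 14.0% in each direction.

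**Figure D4:**
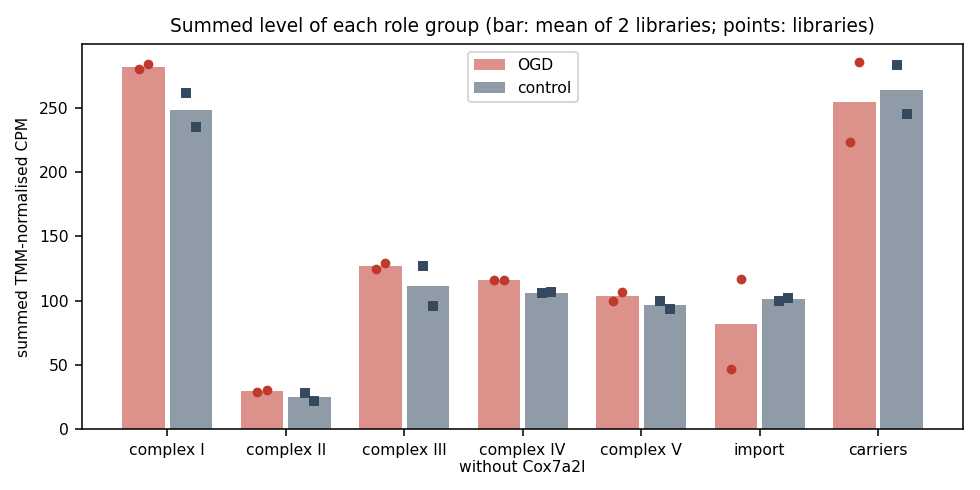
Summed TMM-normalised CPM of each role group, complex IV without Cox7a2l, with bars for the mean of 2 libraries and points for the libraries, OGD left of control. Import spreads from 47.1 to 117 CPM between the OGD libraries, the spread of Timm8a1, and the sums of complex III, import and the carriers overlap between groups.

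The 12 untested member loci had between 0 and 13 counts in any library. They were Ndufa8, Ndufa10, Ndufb3, Ndufb9 and Ndufs6 of complex I, Atp5c1 of ATP synthase, Timm8a2 and Tomm22 of import, Slc25a25, Slc25a38 and Slc25a39 of the carriers, and a locus named Cox17andPopdc2. At 0 counts, as at Timm8a2 in OGD replicate 2 and control replicate 2, up to 3 counts are possible, which are 1.25 CPM in the first of these libraries and 1.20 CPM in the other. Without Cox7a2l, all members together summed to 920 and 1069 CPM in the OGD libraries and 1005 and 900 CPM in the control libraries, and these ranges overlap.

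Genes of the same pathway whose names do not fall under the rule were looked up from lists. Of 48 assembly and supercomplex factors, 14 had a locus and 6 were tested. In edgeR 0 of these passed the adjusted threshold and 1 an unadjusted p under 0.05, beside 2.33% of all tested loci. Atpaf1, an assembly factor of ATP synthase, had 27 and 17 counts in the OGD libraries and 7 and 11 in the control libraries, a log2 fold change of 1.32 (edgeR unadjusted p = 0.0413, adjusted p = 1.00). Foxred1, an assembly factor of complex I, had 52 and 42 counts in the OGD libraries and 69 and 73 in the control libraries. Of 27 genes of the TCA cycle and pyruvate entry, 12 had a locus and 8 were tested, with 0 past the adjusted and 0 past the unadjusted threshold in edgeR, 1 log2 fold change above 0 and a median of -0.18. Cs, citrate synthase, was highest, at 521 and 389 counts in the OGD libraries and 578 and 462 in the control libraries.

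Of 28 genes of the outer membrane, import partners and mitochondrial dynamics, 7 had a locus and 5 were tested. In edgeR 0 passed the adjusted threshold and 2 an unadjusted p under 0.05, beside 2.33% of all tested loci. Pmpcb, a subunit of the protease that removes import signals, had 29 and 33 counts in the OGD libraries and 12 and 15 in the control libraries (log2 fold change 1.25, edgeR unadjusted p = 0.0233, adjusted p = 1.00). Samm50, which inserts barrel proteins into the outer membrane, had 12 and 11 counts in the OGD libraries and 27 and 24 in the control libraries (log2 fold change -1.08, edgeR unadjusted p = 0.0295, adjusted p = 1.00). Hspd1, the chaperonin of the matrix, had 134 and 113 counts in the OGD libraries and 0 and 86 in the control libraries. Of 14 genes of ubiquinone synthesis and 16 of biogenesis and mitochondrial DNA, 5 each had a locus and 2 each were tested, and in edgeR 0 passed either the adjusted or the unadjusted threshold. Adck4 and Nrf1 were the highest of these lists, with log2 fold changes of 0.36 and 0.46. Names of genes encoded in mitochondrial DNA had 0 loci.

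Ribosomal protein names, which mark another large set of nuclear genes, were looked up in the same way. Cytosolic ribosomal protein names had 36 tested loci with 0 past the adjusted threshold in edgeR, 1 past the unadjusted (beside 2.33% of all tested loci) and a median log2 fold change of 0.07. Mitochondrial ribosomal protein names had 13 tested loci, with 0 past either threshold in edgeR, and a median of 0.31, with both OGD libraries above both controls at 8 of the 13, beside 14.0% of all tested loci. The difference between these lists and the members was not tested.

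Among loci named after markers of other cells, Syn1 and Abcc9 had more counts in both OGD libraries than in either control, and neither passed the adjusted threshold in edgeR. Cd68, a microglia and macrophage name, went the other way, with 15 and 13 counts in the OGD libraries and 18 and 16 in the control libraries. Over all tested loci, both OGD libraries lay above both controls at 14.0% and below both at 14.0%. Syn1, a synaptic vesicle gene of neurons, had 98 and 45 counts in the OGD libraries and 2 and 1 in the control libraries, while Gria2, the main contributor to the neuron sum, had 187 and 222 counts in the OGD libraries and 223 and 275 in the control libraries. Abcc9, which made up most of the endothelial and mural sum, had 85 and 54 counts in the OGD libraries and 6 and 17 in the control libraries. That sum was 25.0 to 32.0 CPM in OGD libraries and 3.64 to 7.57 CPM in control libraries, through 2 of 8 names. Pecam1, the other name found, had 0 and 6 counts in the OGD libraries and 4 and 2 in the control libraries. The part of these marker loci in the differences at Cox7a2l and Ndufb8 was not tested.

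Features that the choice by name did not use were then described. All 73 member transcripts carry NONCODE identifiers. Their median length was 698 bases (278 to 4942), beside 686 bases for all listed transcripts. For 31.5% of them the length equals the span on the chromosome, as in an unspliced transcript, beside 44.6% of all listed transcripts. The 18 member loci made up only of transcripts named as unspliced had 14 tested loci with a median log2 fold change of 0.23 (-0.55 to 1.09). The 35 tested loci with a transcript not named as unspliced had a median of 0.0068 (-0.64 to 2.17), Cox7a2l and Ndufb8 among them. The difference between these medians was not tested, and the same split was not made over all loci. Members lie on 19 chromosomes, with 11 on chromosome 7, and at 7 of the 61 a member transcript shares bases with one from a different listed locus.

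Names of 60 of the 61 loci matched a RefSeq gene of GRCr8, and 52 of these genes had a promoter sequence of 300 bases. These were searched on both strands for 4 short motifs of factors known from nuclear genes of the respiratory chain or from the response to low oxygen. GCATGCGC, the core of the site of NRF1 (nuclear respiratory factor 1), was found in 5 of 52 member promoters (9.62%) and in 2.47% of 33469 promoters in all. ACTTCCGG, a site of the ETS factor GABP, was found in 5 (9.62%) and in 3.81% of all. AAGATGGC, the site of YY1, was found in 8 (15.4%), 5 of them of complex I genes, and in 3.17% of all. ACGTG, the core that HIF binds, was found in 16 (30.8%) and in 19.3% of all. In the sequences printed above, the promoter at Cox7a2l holds ACGTG once, at base 151, and that at Ndufb8 holds AAGATGGC once, at base 272, which is past the start of the gene. A match is a description of these letters and not a site of binding. The motifs were chosen with the members known, and these shares were not tested. The promoters in all were not selected by type of gene, whereas the genes matched to members are all protein-coding, so the sets are unlike.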

How the data were processed

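The authors deposited 1 table per library, which gives raw counts in whole numbers beside FPKM for the same 20524 transcripts, per the file headers. The tools HISAT2 and StringTie stand, with no version, in the submitters' processing notes. For the counting of reads, and any use of strand, no source used here gives a method. The build in those notes is mm9, of mouse, but the tables have 20 autosomes and reach position 282490960 on chromosome 1, so table coordinates are printed without a build.

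Counts were summed per name and chromosome. Names came from the Ensembl column, then StringTie gene identifiers, RefSeq accessions and AceView names. The test was edgeR 4.0.16 in R 4.3.3 (filterByExpr, TMM, quasi-likelihood F test on group, adjusted p threshold 0.05), tested on simulated counts for the 9581 loci. There it called 6 of 50 changes of 2-fold, 21 of 50 of 4-fold and 50 of 50 of 16-fold. Of simulated loci without a change, 0.0447% were called. Standard errors are approximate: the size of the log2 fold change over the root of F. CPM are counts over TMM-scaled totals of tested loci. The deposited FPKM values imply 1 library total each, of which the listed counts are 9.98% to 10.6%. A count of 3 corresponds to 1.09 to 1.25 CPM. The name COX7B.1, in capitals, was not taken as a member. The values of 1 member locus are not reported here.

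The 61 members, the pathway lists and the motifs were chosen with earlier results of these data known. Named with values are Cox7a2l, members with an unadjusted p under 0.05, the 15 with the highest mean CPM and the 3 with the largest change in each direction. In the other lists, the highest locus and those with an unadjusted p under 0.05 are named. Other loci in the text were named after their values were seen. Alternatives were DESeq2 1.42.0, other scalings and filters, unsummed transcripts, merged overlapping loci, another threshold, a block on the replicate number, and leaving out each library.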

Additional observations from a re-analysis of the deposited data

How the results depend on the processing

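At Cox7a2l the difference kept its direction in all 13 alternatives, with log2 fold changes from 1.60 (overlapping loci merged) to 2.35, and 1.98 to 2.35 with 1 library left out. It passed the adjusted threshold with DESeq2 (2.17) and with a replicate block (2.16, edgeR adjusted p = 0.0232), and was the 1 member called in each. With the rule of an unadjusted p below 0.05 and a change of 2-fold or more, 2 members passed. Leaving out a library gave 0 members called in each case. Over all loci, the 8 calls became 38 with DESeq2, 21 with the replicate block, 159 with the unadjusted rule, 1 with transcripts as deposited and 0 without a filter on low counts (403 at an unadjusted p under 0.05). With a library left out the calls ran from 0 to 12. There were 12 without OGD replicate 2, and 0 without OGD replicate 1 (257 at an unadjusted p under 0.05), without control replicate 1 (354) or without control replicate 2 (265), where the lone library was assumed to vary like the other group. The cause was not tested. What the replicate number marks is not in the labels. Deviations of control 1 and OGD 1 from their groups had r = 0.300 over the tested loci.

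The members' median log2 fold change lay between -0.053 (without OGD replicate 2) and 0.17 (without control replicate 1) and was 0.13 without OGD replicate 1. Of 225 other values of named members, 214 kept their direction and side of the threshold and 11 changed sign, 1 of them with totals implied by FPKM (Uqcr, -0.023). The rest came with a library left out, over which Uqcr ran from -0.088 to 0.11, Atp5j2 from -1.20 to 0.73, Cox19 from -0.33 to 0.035, Ndufa6 from -0.47 to 0.027, Ndufa7 from -0.13 to 0.53, Ndufb2 from -0.54 to 0.16, Uqcrc2 from -0.019 to 0.95 and Timm8a1 from -2.45 to 0.23. The cause was not tested. No scaling moved the median of all loci by more than 0.021 in size on the log2 scale.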
